A study of Coprinopsis cinerea with 4 samples.

Results

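The long orphan regions of the mushroom Coprinopsis cinerea are the 640 regions that the deposited table files under its class Orphans, that span at least 2000 bp, and that lie more than 100000 bp from any centromere row and from the outermost rows of their chromosome. They were chosen by class, length and position, with no measured value, out of 3689 orphan regions, 14514 element rows and 27856 rows in all. Before the distance filter 724 orphan regions were at least 2000 bp long, and centromere rows existed for 9 of the 13 chromosomes. RNA sequencing compared hyphae, the growing filaments of the mycelium, with oidia, the asexual spores, each with 2 libraries of strain okayama7#130. Both stages were poly(A)-selected. Hyphae were prepared with a NEBNext Ultra kit for Illumina and oidia with a SOLiD kit, and any difference below is one of stage and kit together, which cannot be told apart. The labels do not say whether the 2 replicates of a stage were grown separately, and the p-values then reflect library-to-library spread that may be only technical.

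An orphan gene is a gene for which no related gene is recognised in other lineages. Orphan genes are usually short, and many are thought either to arise from sequence that was not coding before or to diverge until their relatives can no longer be found. In Coprinopsis, oidia form on aerial branches of the mycelium, disperse, and germinate into new hyphae. The classes are named as in the table, and the sources used here do not say how each gene was placed in one.

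The regions are the bodies of annotated genes. Of the 640 regions, 639 lay inside exactly 1 protein-coding locus of the RefSeq gene list for assembly CC3, and 536 of these differed from the locus by exactly 3 bp, missing at 1 end. Each region is therefore called here by the locus that holds it. No product name or gene symbol accompanied the loci in the sources used here, so no role is given to any of them. Coordinates below are the table's, on a build that the sources used here do not name.

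Length set them apart from the rest of their class by choice. They ran from 2002 to 10926 bp with a median of 2573 bp, where the median of all orphan regions was 1056 bp and only 19.6% reached 2000 bp. Of all orthologous regions 37.8% and of all paralogous regions 28.1% were that long. The regions just inside the limit were CC1G_14681 at 2002 bp and CC1G_02190 at 2003 bp, where the log2 fold change, hyphae over oidia, was 2.08 and -1.66 with TMM scaling (-0.12 for CC1G_02190 with total gene counts). Just outside lay CC1G_01297 at 1998 bp and CC1G_05946 at 1988 bp, with -1.41 and -0.77 with TMM scaling. Total gene counts moved the median of all tested element rows up by 1.544, more than the size of either fall. The neighbours of long orphan regions on either side were orthologous in 49.7% of cases, orphan in 29.6% and paralogous in 20.7%, where these classes made up 44.0%, 27.9% and 28.1% of all gene regions. Only 2 of the regions overlapped a repeat or transposon row.

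Reads assigned to genes numbered 4586306 and 3546635 for hyphae and 7519091 and 6128727 for oidia. The TMM-scaled library sizes were 7863179 and 6046718 for hyphae and 4431984 and 3557125 for oidia. A count of 0 allows up to 3 reads in a stage, which is 0.216 CPM (counts per 1000000 of the TMM-scaled library size) in hyphae and 0.376 CPM in oidia, for counting error only. Across the 314 long orphan regions with a mean normalized count of at least 100, the log2 ratio of replicate 1 to replicate 2 had an SD of 0.16 in hyphae and 0.25 in oidia.

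Nearly all long orphan regions gave reads. In hyphae 638 and 624 of the 640 had a read in replicates 1 and 2, and in oidia 588 and 583 did. Orphan regions under 2000 bp, under the same distance filter, were found less widely, with 92.8% and 85.2% of 2561 for hyphae and 70.6% and 69.0% for oidia. A longer region collects more reads at the same level, so these shares are not comparable as measures of expression. Per kb, the median long orphan region stood at 5.34 and 5.14 CPM per kb in hyphae and 4.46 and 4.51 in oidia. Orthologous regions of at least 2000 bp had medians of 10.07 and 10.02 in hyphae and 10.9 and 10.9 in oidia, and orphan regions under 2000 bp had 2.65 and 2.53 in hyphae and 1.71 and 1.75 in oidia. The long orphan medians thus lay between those of both these sets in each of the 4 libraries. Paralogous regions of at least 2000 bp had lower medians than all of these, at 1.20 and 1.12 in hyphae and 0.628 and 0.624 in oidia. No reads at all were found for CC1G_10855 and CC1G_08376.

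**Figure D1:**
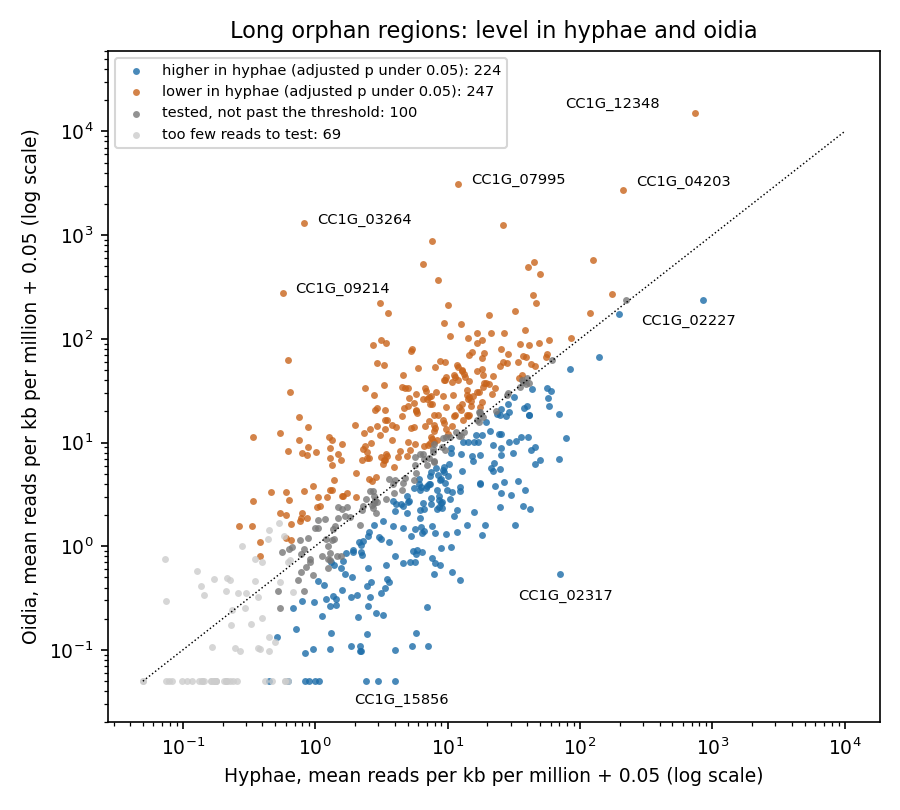
Mean level of each of the 640 long orphan regions in hyphae (x axis) and oidia (y axis), in CPM per kb plus 0.05, on log scales, coloured by the edgeR call; the dotted line marks equal levels. Regions spread over both sides of the line, with 224 higher and 247 lower in hyphae, and CC1G_12348 stands at the top; scaling by total gene counts moves the split to 406 higher and 113 lower.

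Most long orphan regions differed between hyphae and oidia, in both directions. The libraries are bulk, so more cells with a transcript and more transcript per cell cannot be told apart. Of the 571 regions with enough reads to test, 471 passed (edgeR quasi-likelihood test, Benjamini-Hochberg adjusted p under 0.05 over 9976 tested element rows), which is 82.5% where 83.0% of all tested element rows passed. The share that differed is therefore near the background. Higher in hyphae were 224 regions (39.2%, against a background of 45.1%) and lower in hyphae were 247 (43.3%, against 37.9%). The median log2 fold change was -0.09 over the 571 tested long orphan regions and 0.25 over all tested element rows. It was 0.40 for 1560 tested orphan regions under 2000 bp, -0.17 for 1945 orthologous and 0.43 for 577 paralogous regions of at least 2000 bp. CPM values of one stage did not overlap those of the other in 520 of the 571 regions (91.1%, against 90.4% of all tested element rows). The direction depended on the scaling. With total gene counts 406 regions were higher in hyphae and 113 lower, with a median of 1.45, where all tested element rows had 1.79. With upper-quartile factors the long orphan median was 0.17, where all rows had 0.51. A change of scaling moves all rows nearly alike, by 1.548 for the long orphan median and 1.544 for that of all rows with total gene counts. That the long orphan median lay below that of all rows under each of the 4 scalings is therefore the same comparison repeated.

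**Figure D2:**
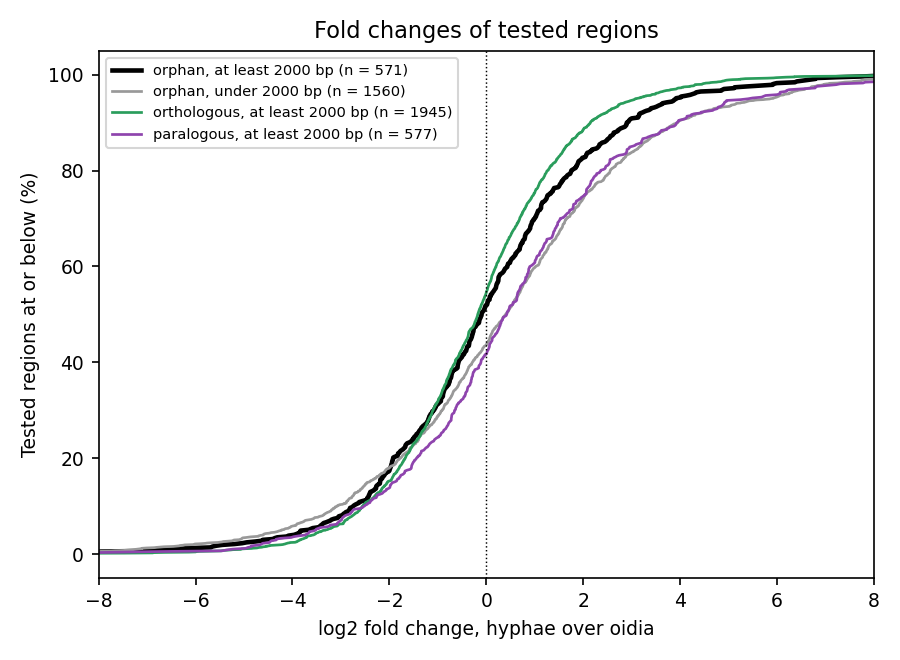
Cumulative share of tested regions (y axis, percent) at or below each log2 fold change, hyphae over oidia (x axis, cut at -8 and 8), for long orphan regions and 3 sets under the same distance filter. The long orphan curve crosses 0 near its middle (median -0.09) and runs close to the orthologous curve (-0.17), left of the shorter orphan (0.40) and paralogous (0.43) curves near the median; with total gene counts all 4 medians are above 0, from 1.37 to 1.96.

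Large changes were balanced with TMM scaling. At least 4-fold changes were found for 198 regions (34.7% of those tested, against 36.2% of all tested element rows), 99 of them higher in hyphae (17.3%, against 21.3%) and 99 lower (17.3%, against 14.9%). At least 16-fold changes were found for 28 regions higher in hyphae (4.90%, against 7.50% of all tested element rows) and for 22 lower (3.85%, against 3.80%). Of the 28, 9 had no oidia read, and a fold fitted without oidia reads is no measured fold. All 22 had hyphal reads. The 4-fold split became 225 higher and 31 lower with total gene counts, and 118 and 81 with upper-quartile factors. Orphan regions under 2000 bp had at least 4-fold changes in 44.0% of those tested, orthologous regions of at least 2000 bp in 26.8% and paralogous ones in 39.2%. These shares were not tested against each other, since regions are not replicates.

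The oidia reads of the long orphan regions lay in very few of them. The 10 regions with most reads in a stage held 27.5% ± 0.0398 of the reads of all 640 in hyphae and 62.8% ± 0.480 in oidia (SD, n = 2 each). It took 51 regions to reach 50% of the long orphan reads in each hyphae library and 4 in each oidia library. Such shares were not taken for other sets, but their highest level per kb was also far higher in oidia. For orthologous regions of at least 2000 bp it was 1474 and 1425 CPM per kb in hyphae against 54560 and 58598 in oidia. For orphan regions under 2000 bp it was 19515 and 19732 against 144143 and 135168. Concentration in oidia is thus not shown to be particular to long orphan regions. CC1G_02227 led in hyphae with reads equal to 0.296% ± 0.00344 of all gene reads, and CC1G_12348 led in oidia with 2.04% ± 0.106 (SD, n = 2 each). Levels per kb ranked alike within a stage (rank correlation 0.992 in hyphae and 0.989 in oidia over the 571 tested regions) and less alike between the stage means (0.610), as a description over regions that share libraries. Of the 50 regions with the highest level per kb in each stage, 19 were shared, 38.0% of each list.

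Summed over all 640 regions, hyphae replicates held 198020 and 151338 reads and oidia replicates 440885 and 366151. That was 4.29% ± 0.0357 of gene reads in hyphae and 5.92% ± 0.0783 in oidia (SD, n = 2 each). The summed log2 fold change was -2.01 ± 0.05 (SE; edgeR adjusted p below the smallest number the software writes), and -0.46 with total gene counts (edgeR adjusted p = 1.35e-22). With TMM scaling the sums of the other sets were also lower in hyphae. Orthologous and paralogous regions of at least 2000 bp had -2.38 and -0.97, and orphan regions under 2000 bp had -1.39. With total gene counts these were -0.83, 0.58 and 0.16, so a lower sum with TMM scaling was not particular to the long orphan regions. Without CC1G_12348, a removal chosen after its values were seen, the shares were 4.004% ± 0.0331 in hyphae and 3.88% ± 0.0275 in oidia (SD, n = 2 each). The sum was then -1.50 ± 0.05 (SE) with TMM and 0.05 ± 0.05 (SE, edgeR adjusted p = 0.353) with total gene counts. The lower hyphal sum under total gene counts therefore rested on that region.

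The region with most reads was CC1G_12348 on chromosome 10 (1397332 to 1399622). It had 13323 and 10172 hyphal reads against 147695 and 129558 oidial reads. At 1694 and 1682 CPM in hyphae against 33325 and 36422 CPM in oidia, the stages were far apart and the replicates close together. Its log2 fold change was -4.37 ± 0.07 (SE), and -2.82 with total gene counts. It ranked among the 5 highest levels per kb in hyphae as well as in oidia, at 739.9 and 734.6 CPM per kb in hyphae against 14552 and 15905 in oidia.

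Of the 10 largest falls among regions with a mean normalized count of at least 100 (the rule for naming them is given with the processing), CC1G_03264 was first. This region on chromosome 3 (2701548 to 2704479) had 19 and 13 hyphal reads against 16631 and 13689 oidial reads. The log2 fold change was -10.68 ± 0.12 (SE), and -9.13 with total gene counts. CC1G_09214 on chromosome 11 (1772669 to 1775248) had 8 and 10 hyphal reads against 3207 and 2528 oidial reads, or a log2 change of -9.09 ± 0.14 (SE). With so few hyphal reads the SE is too small for both CC1G_03264 and CC1G_09214. The change of CC1G_09214 was -8.70 without hyphae replicate 1 and -9.41 without hyphae replicate 2. That of CC1G_03264 was -10.73 and -10.59 in the same order. CC1G_07995 on chromosome 8 (346911 to 349142) had 194 and 175 hyphal reads against 30757 and 24413 oidial reads, or a log2 change of -8.02 ± 0.09 (SE). In all 3, every oidia library exceeded every hyphae library by more than 100-fold in reads. CC1G_09217 on chromosome 11 (1767581 to 1769983) followed with 17.9 and 18.2 CPM in hyphae against 2163 and 2062 CPM in oidia, and a log2 fold change of -6.87 ± 0.09 (SE). The other 6 were CC1G_03016, CC1G_12349, CC1G_14294, CC1G_15348, CC1G_07716 and CC1G_08637, with log2 fold changes of -6.75, -6.37, -6.20, -5.68, -5.65 and -5.57. CC1G_14294 and CC1G_15348 were 5582 and 5640 bp long. All 10 had an edgeR adjusted p below the smallest number the software writes, and stayed lower in hyphae under each of the other 3 scalings, with DESeq2 and without each library. Total gene counts moved the long orphan median by 1.55, so scaling could not turn falls this large.

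Among the 10 largest rises under the same rule, CC1G_02317 was first. This region on chromosome 3 (3101988 to 3104193) had 1172 and 991 hyphal reads against 2 and 6 oidial reads. At 149 and 164 CPM in hyphae against 0.451 and 1.69 CPM in oidia, its log2 fold change was 7.25 ± 0.20 (SE). With so few oidia reads the size depended on the library, at 6.52 without oidia replicate 1 and 8.36 without oidia replicate 2. CC1G_04691 on chromosome 3 (815508 to 818191) followed with 663 and 534 hyphal reads against 23 and 11 oidial reads, or a log2 change of 4.33 ± 0.17 (SE). CC1G_12715 on chromosome 4 (1039131 to 1042887) had 329 and 232 hyphal reads against 12 and 4 oidial reads. Its log2 fold change of 4.31 ± 0.25 (SE) became 5.14 when oidia replicate 1 was left out and 3.87 when oidia replicate 2 was. CC1G_15053 had 713 and 563 hyphal reads against 17 and 21 oidial reads, or a log2 change of 4.26 ± 0.17 (SE). The remaining 6 of the 10 were CC1G_09632, CC1G_12510, CC1G_04513, CC1G_03083, CC1G_04257 and CC1G_01260, at 3.92, 3.87, 3.64, 3.47, 3.39 and 3.36. All 10 had an edgeR adjusted p of at most 5.88e-64, and stayed higher in hyphae under each of the other 3 scalings, with DESeq2 and without each library. For rises, staying higher under these scalings was fixed in advance. Total gene counts and upper-quartile factors moved the long orphan median up, and DESeq2 size factors moved it by only -0.08. The tenth rise was 3.36 on the log2 scale and the tenth fall -5.57 with TMM scaling, and 4.91 and -4.02 with total gene counts. The first rise and fall were 7.25 and -10.68 with TMM scaling and 8.78 and -9.13 with total gene counts. Both lists hold only regions above the count limit of the rule, which left out larger fitted rises with fewer reads. Without that limit, 28 regions were at least 16-fold higher in hyphae, 9 of them with no oidia read, and 22 were lower. At least 64-fold higher were 10, of which 7 had no oidia read, and 7 were lower. The 2 lists therefore do not show that falls were larger than rises among all tested regions.

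**Figure D3:**
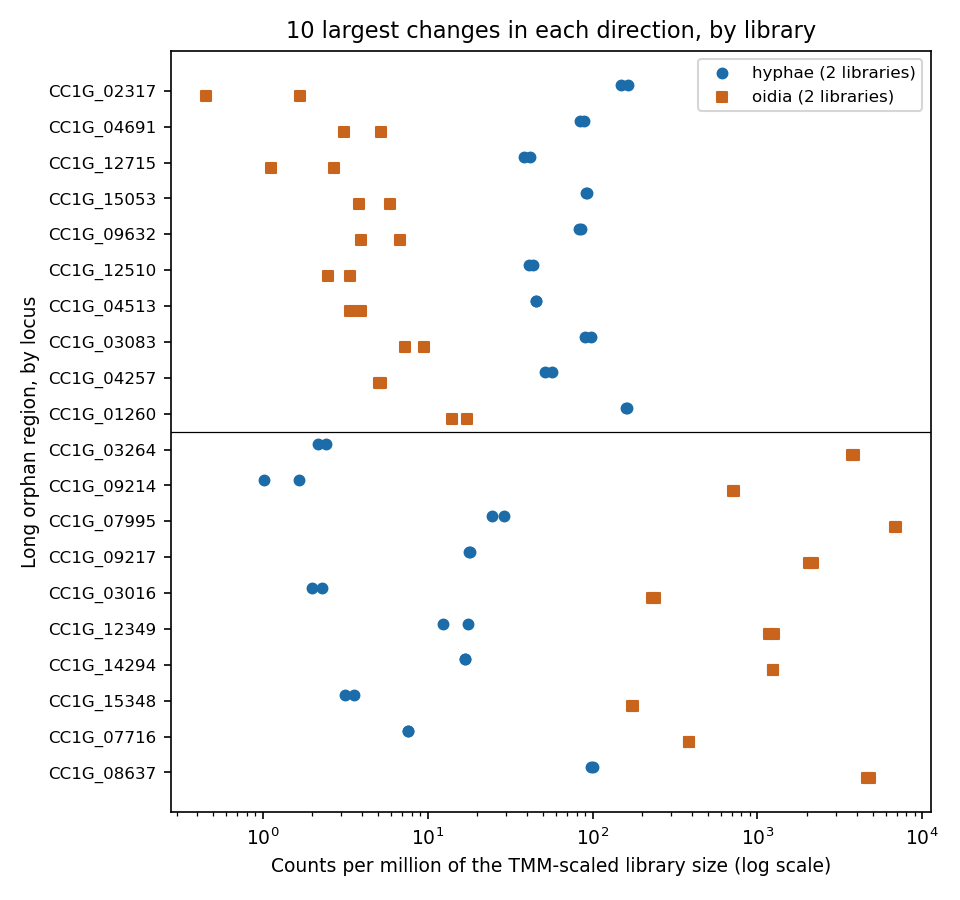
CPM (x axis, log scale) in each of the 2 hyphae libraries (circles, upper in each row) and 2 oidia libraries (squares). The regions are the 10 largest rises (above the line) and 10 largest falls (below it) under the naming rule. That rule requires a mean normalized count of at least 100, so larger fitted rises with fewer reads are not drawn. Replicates of a stage sit close together beside the gap between stages, which is widest for CC1G_03264 (2.42 and 2.15 in hyphae against 3752 and 3848 in oidia).

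Of the 640 regions, 39 had hyphal reads but no oidial read, and 0 had the opposite. Hyphal reads alone were thus found in 6.09% of them, in 17.5% of all 14514 element rows, in 21.0% of orphan regions under 2000 bp, in 1.46% of orthologous and in 30.3% of paralogous regions of at least 2000 bp. Of the 39, 9 had enough reads to test. CC1G_15856 on chromosome 6 (777554 to 780306) had 78 and 73 hyphal reads, at 9.92 and 12.1 CPM, and 0 and 0 oidial reads. Set against 3 reads over both oidia libraries, that is at least 28.9-fold higher. CC1G_05972 on chromosome 3, with 54 and 38 hyphal reads and 0 and 0 oidial reads, was at least 17.6-fold higher. CC1G_08586 on chromosome 9, with 40 and 31 hyphal reads and 0 and 0 oidial reads, was at least 13.6-fold higher. The other 6 tested regions had at most 35 hyphal reads. Over the 39 regions the hyphae libraries held 3.78 and 2.45 reads per kb, where 790 repeat and centromere rows with no oidia read held 0.847 and 0.358. Only 20 of the 39 exceeded that density in both hyphae libraries, and the other regions were not above it in both.

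The 5 highest hyphal levels per kb belonged to regions that rose, fell or did not pass. CC1G_02227 on chromosome 10 (1974367 to 1976392) had the highest hyphal level per kb, with 13695 and 10418 hyphal reads against 2205 and 1658 oidial reads. It rose by 1.85 ± 0.07 on the log2 scale (SE, edgeR adjusted p = 5e-168). CC1G_03890 on chromosome 2 had 582 and 578 CPM in hyphae against 602 and 636 CPM in oidia, or a log2 change of -0.09 ± 0.07 (SE, edgeR adjusted p = 0.171) that passed as lower with DESeq2 size factors (-0.17, edgeR adjusted p = 0.0147) and as higher with upper-quartile factors (0.17, edgeR adjusted p = 0.0172). CC1G_01980 on chromosome 3 had 584 and 616 CPM in hyphae against 512 and 552 CPM in oidia, a rise of 0.17 ± 0.07 on the log2 scale (SE, edgeR adjusted p = 0.0114). That call was lost with DESeq2 size factors (edgeR adjusted p = 0.181), with the DESeq2 Wald test (adjusted p = 0.173) and without hyphae replicate 2 (edgeR adjusted p = 0.135). CC1G_04203 on chromosome 2 (1414175 to 1416496) was among the 5 highest levels in both stages, like CC1G_12348. It had 506 and 485 CPM in hyphae against 6266 and 6293 CPM in oidia, or a log2 change of -3.66 ± 0.07 (SE). Among the 19 regions in the top 50 of both stages, 2 were higher in hyphae, 16 lower and 1 did not pass, all with TMM scaling. Of all tested element rows 45.1% were higher in hyphae and 37.9% lower, but of the 775 with a mean normalized count of 1000 or more 158 were higher and 589 lower, so lower calls also outnumbered higher ones among all abundant rows. The 3 smallest changes among regions with a mean normalized count of at least 100 were those of CC1G_01078, CC1G_03415 and CC1G_03704, all between -0.02 and 0.02 with TMM scaling, with standard errors of 0.10, 0.10 and 0.12.

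Direction by length is described with TMM scaling, and differences between length bands were not tested. The 18 regions of 6000 bp or more, all tested, had a median log2 fold change of -1.19, with 3 higher and 12 lower in hyphae. Regions of 2000 to under 2500 bp had a median of 0.15, with 109 higher and 93 lower, and those of 3000 to under 4000 bp had -0.41, with 39 higher and 65 lower. The bands were not in strict order, as 60 tested regions of 4000 to under 6000 bp had -0.02, and the longest band holds under 20 regions. Of the longest band 66.7% of the orphan regions were lower in hyphae, where 76.5% of 85 orthologous regions (11 higher, 65 lower) and 58.3% of 12 paralogous regions (2 higher, 7 lower) were. Their medians were -1.46 for orthologous and -1.03 for paralogous regions, so the longest band was below 0 in each of the 3 classes. With total gene counts the median of the longest orphan band turned to 0.36, with 10 higher and 7 lower, where that of 2000 to under 2500 bp was 1.70. Longer regions also had more reads, with a median normalized count of 477 in the longest band against 76.1 in the shortest. The part of abundance in the relation to length was not tested.

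Of the 5 longest regions, 4 were lower in hyphae. CC1G_00331, 10926 bp long on chromosome 5 (1627343 to 1638269), had 54.3 and 54.9 CPM in hyphae against 354 and 381 CPM in oidia, or a log2 change of -2.75 ± 0.08 (SE, edgeR adjusted p = 3.2e-231). CC1G_00894 and CC1G_13603, 8486 and 8498 bp long, had -2.90 ± 0.10 and -2.14 ± 0.08 (SE). CC1G_15528, 9229 bp long, had -1.21 ± 0.11 (SE), which turned to 0.33 with total gene counts. The third longest, CC1G_08126 at 8652 bp, had 35.7 and 30.3 CPM in hyphae against 32.5 and 35.1 CPM in oidia, so its stages overlapped. Its log2 fold change was -0.02 ± 0.13 (SE, edgeR adjusted p = 0.895), and it passed as higher in hyphae, at 1.53, with total gene counts (edgeR adjusted p = 2.44e-26).

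**Figure D4:**
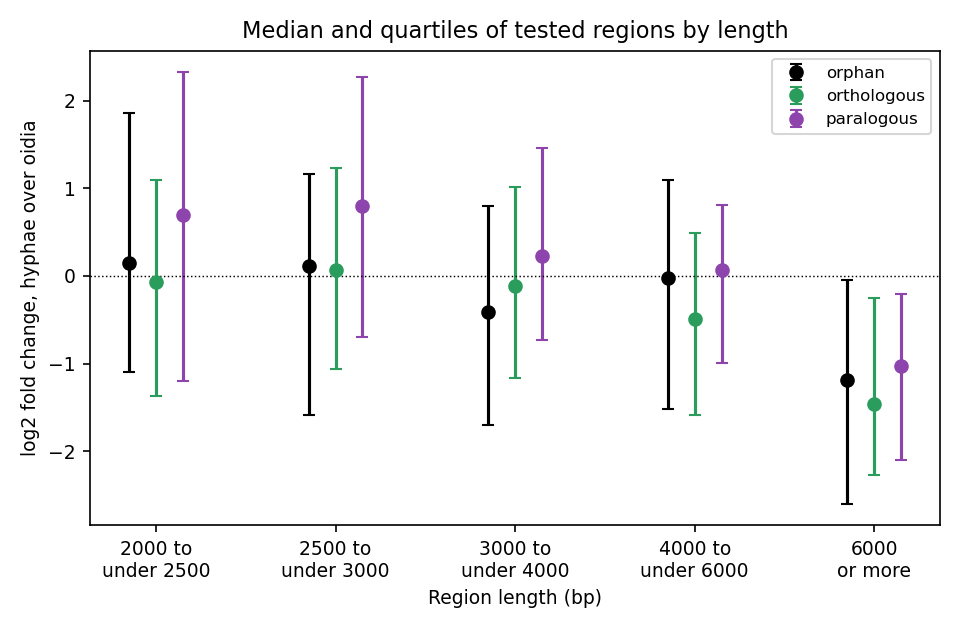
Median log2 fold change, hyphae over oidia (y axis; points), with quartiles (bars) of tested regions in 5 length bands (x axis, bp) for orphan, orthologous and paralogous regions under the same distance filter. The longest band is lowest in each class, at -1.19, -1.46 and -1.03, with TMM scaling; the orphan value of that band turns to 0.36 with total gene counts.

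Abundance went with direction more closely than length did. Over the 571 tested regions the rank correlation of log2 fold change was -0.439 with the mean normalized count and -0.118 with length, as a description over regions that share 4 libraries and whose mean count holds both stages. The 39 regions with a mean normalized count of 1000 or more had a median log2 fold change of -2.75, with 5 higher and 32 lower in hyphae, where all 775 tested element rows of that band had -1.95, with 158 higher and 589 lower. Lower in hyphae were thus 82.1% of the long orphan regions of the band, 76.0% of all its rows and 92.1% of its 216 orthologous regions of at least 2000 bp. The 175 regions of 200 to under 1000 had -0.86 against -0.48 over all rows of the band. The 193 of 50 to under 200 had 0.20 against 0.37, and the 164 under 50 had 0.93 against 1.13. In each of the 4 bands the long orphan median was below that of all rows, and so was the median of the orthologous regions of at least 2000 bp, at -2.38, -0.52, 0.36 and 0.78 in the same order. The low-count filter used unscaled library sizes, so a region could pass at a lower TMM-scaled CPM in hyphae than in oidia. In the lowest band, 9 tested long orphan regions with no oidia read passed on hyphal reads alone. The part of this filter in the band medians and in the correlation with abundance was not tested.

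The regions lay on all 13 chromosomes. Chromosome 4 had 10 higher and 33 lower in hyphae among 57 tested, with a median log2 fold change of -0.72, where all 961 tested element rows of that chromosome had 427 higher and 354 lower and a median of 0.23. Chromosome 6 had 15 higher and 5 lower among 21 tested, with a median of 1.78, where all 456 rows had 214 and 162 and a median of 0.41. With total gene counts chromosome 4 had 30 higher and 14 lower, and chromosome 6 had 19 and 2. These chromosomes were picked after their values were seen, and the difference between chromosomes was not tested.

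Some strongly changed regions lay beside each other. There were 42 pairs of long orphan regions with no other gene region between them, in 39 runs that held 81 regions. In the 38 pairs with both members tested, 25 (65.8%) had the same sign, with a rank correlation of 0.526. Over all 478 tested pairs of a long orphan region and its right neighbour of any class, 272 (56.9%) had the same sign, with a rank correlation of 0.207. For all gene regions and their right neighbours 57.6% of 8366 pairs had the same sign, with a rank correlation of 0.211. These are descriptions, since neighbours share libraries, and the differences between these shares were not tested.

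Of the 3 runs of 3 regions, that on chromosome 10 held CC1G_12348, CC1G_12349 and CC1G_15320. CC1G_12349 began 258 bp after CC1G_12348 and had 98 and 106 hyphal reads against 5226 and 4509 oidial reads, or a log2 change of -6.37 ± 0.10 (SE). CC1G_15320 had 28 and 15 hyphal reads against 105 and 92 oidial reads, or a log2 change of -2.99 ± 0.25 (SE, edgeR adjusted p = 2.43e-33). All 3 were lower in hyphae also with total gene counts, at -2.82, -4.83 and -1.45. On chromosome 13, CC1G_05602 and CC1G_05604 were higher in hyphae, at 1.40 ± 0.17 and 1.51 ± 0.27 (SE). CC1G_05603 between them had 174 and 130 hyphal reads against 105 and 42 oidial reads and did not pass (0.25 ± 0.17, SE, edgeR adjusted p = 0.151). In the run on chromosome 1, CC1G_00698 and CC1G_00699 were lower in hyphae, at -2.15 ± 0.09 and -2.81 ± 0.12 (SE), and CC1G_13767 had too few reads to test.

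Around other regions with large falls, picked after their values were seen, the pattern varied. CC1G_07995 began 27 bp after CC1G_05447, an orphan region of 1007 bp with 347 and 259 hyphal reads against 15324 and 12512 oidial reads. CC1G_05447 had a log2 fold change of -6.32 ± 0.08 (SE), so both neighbours were far lower in hyphae. CC1G_09217 and CC1G_09214 were 2686 bp apart on chromosome 11. Between them lay CC1G_09216, a paralogous region with 6 and 5 hyphal reads against 1 and 3 oidial reads, which did not share their high oidia counts. On the left of CC1G_03264, 327 bp away, CC1G_03263 had 1671 and 1309 hyphal reads against 969 and 750 oidial reads and did not pass (-0.003 ± 0.08, SE, edgeR adjusted p = 0.970). On its right, 174 bp away, CC1G_03265 had 6 and 22 hyphal reads against 131 and 108 oidial reads, or a log2 change of -3.87 ± 0.25 (SE, edgeR adjusted p = 1.12e-51). The sources used here do not say how a read over 2 features was counted, and the part of such reads in these neighbouring values was not tested.

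**Figure D5:**
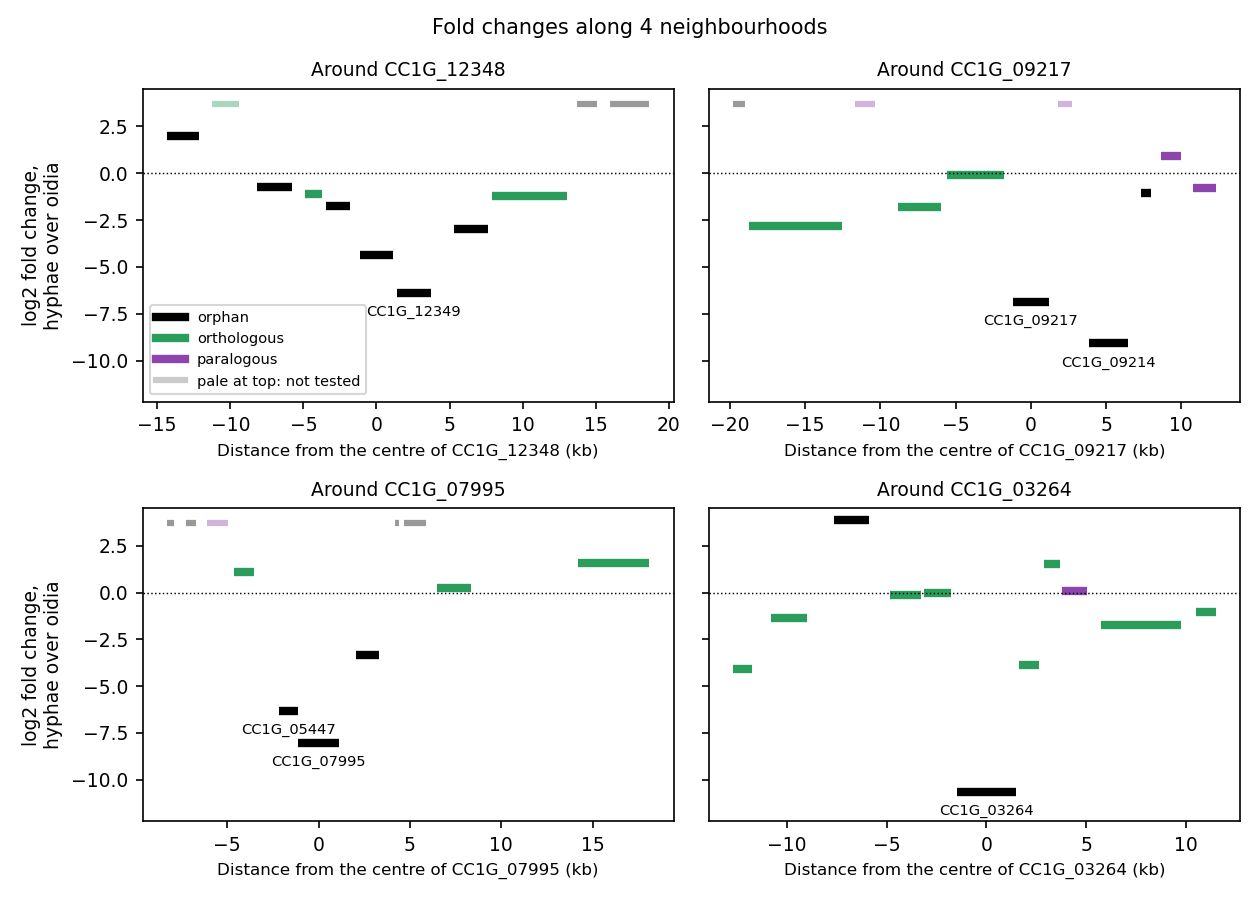
Log2 fold change, hyphae over oidia (y axis), of each gene region within 5 regions of 4 long orphan regions that are lower in hyphae, drawn to scale by distance from the centre of the named region (x axis, kb) and coloured by class; pale bars at the top had too few reads to test. CC1G_12348 and CC1G_07995 lie beside CC1G_12349 (-6.37) and CC1G_05447 (-6.32), and CC1G_03264 (-10.68) lies between CC1G_03265 (-3.87) and CC1G_03263, which did not pass under TMM; with total gene counts CC1G_03263 passed as higher in hyphae (1.54).

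The table also counts each locus as a gene, from mostly the same reads of the same libraries, so the gene rows are no independent readout. For the 536 regions that differ from their locus by 3 bp, region and gene counts were equal in 262 and 275 cases for hyphae and in 313 and 327 for oidia. In 202 of them, with at least 50 gene reads in each library, the region held more reads than the gene by a median of 0.00% and 0.00% of its reads in hyphae and 0.211% and 0.0443% in oidia. The excess was over 5% in 25 regions in hyphae and 24 in oidia, 15 of them in both. With mostly the same reads the calls were bound to be close, with 470 of 569 tested gene rows passing (82.9% of all tested gene rows did). Of these 226 were higher in hyphae and 244 lower.

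In 14 of the 202 regions the excess differed by over 10 percentage points between the stage means, 7 in each direction. The following were picked after their values were seen, and the differences were not tested. CC1G_14470 on chromosome 4 (2927328 to 2929532) had 1392 and 1203 region reads in hyphae with 1170 and 1013 in its gene row, against 922 and 856 region reads in oidia with 288 and 244 in its gene row. The gene row thus missed 15.9% ± 0.109 of the region's reads in hyphae and 70.1% ± 1.93 in oidia (SD, n = 2 each). CC1G_00250 on chromosome 5 (1427214 to 1430497) went the other way, with 49.6% ± 6.87 in hyphae and 14.0% ± 1.89 in oidia (SD, n = 2 each). CC1G_03897 on chromosome 2 had 20.3% ± 0.817 in hyphae and 0% in both oidia libraries (SD, n = 2). Where in the region the reads outside the gene row lay is not in the table.

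The 2 regions that overlap repeat rows are uncertain, as the sources used here do not say how reads matching several copies were handled. CC1G_11874 on chromosome 10 overlaps a retroposon row and had 130 and 97 hyphal reads against 143 and 161 oidial reads. Its log2 fold change of -1.23 (edgeR adjusted p = 5.73e-16) turned to 0.32 with total gene counts. CC1G_09746 on chromosome 7 overlaps a Kyakuja transposase row, of a family of DNA transposons, and had 2 and 0 hyphal reads against 0 and 0 oidial reads.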

How the data were processed

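The authors deposited 1 table of counts of reads overlapping each gene or element in each library, with a DESeq adjusted p-value of their own, per the file headers. TopHat, Bowtie 0.12.7 and DESeq are named in the submitters' processing notes. The build, annotation, counter, strand setting and treatment of multimapping reads are not stated, so near-identical, overlapping or antisense features are uncertain. Members and lists were chosen with earlier results of these data known. Length is end minus start. A locus was matched where 1 protein-coding locus held the whole region.

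The 14514 element rows repeat gene reads and were fitted apart from genes with edgeR 4.0.16 in R 4.3.3 (quasi-likelihood test, filterByExpr, Benjamini-Hochberg adjusted p under 0.05). Library sizes and TMM factors came from the genes, at 1.71 and 1.70 for hyphae and 0.589 and 0.580 for oidia. The prior degrees of freedom were infinite, so the smallest p-values rest on 1 shared spread. Each SE was derived as the absolute fold change over the root of F. It is approximate, and too small for large changes with few reads in 1 stage. Sums were fitted beside the genes. Regions were named as the 10 largest passing changes each way with no overlap between stages and a mean normalized count of 100 or more; the 5 highest levels per kb in each stage; the 5 longest; the 3 with most reads in 1 stage and none in the other; those nearest the length limit; and the 3 smallest changes. Replicates differed beyond sampling noise, with a chi-square over degrees of freedom of 1.28 in hyphae and 3.44 in oidia. The fit was tested on simulated data. Alternatives were other scalings (DESeq2 1.42.0 size factors, upper quartiles, total gene counts), a DESeq2 Wald test, other filters and limits, a replicate block, each library left out, all rows together and the authors' adjusted p. The gene rows and the sum without its leading region were added after the data were seen. With 2 libraries a stage, no exact permutation test goes below a two-sided p of 0.333.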

Additional observations from a re-analysis of the deposited data

How the results depend on the processing

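The count of regions that passed was 471, and the direction of the whole set depended on scaling. The median log2 fold change of -0.09 was -0.17 with DESeq2 size factors, 0.17 with upper-quartile factors and 1.45 with total gene counts. With total gene counts 406 regions were higher in hyphae and 113 lower. The median was 0.0178 without the low-count filter, which adds regions with few reads, and -0.13 with the DESeq2 Wald test. A mean normalized count of at least 100 left 279 that passed, 97 higher in hyphae and 107 changed at least 4-fold, with a median of -0.59. A length of at least 3000 bp left 171, with 66 higher, 105 lower, 63 changed at least 4-fold and a median of -0.41. Both limits keep fewer regions. The DESeq2 Wald test passed 383 regions and the authors' deposited adjusted p passed 405. Leaving out each library gave medians from -0.11 to -0.0556, counts from 410 to 462 and a summed log2 fold change from -2.03 to -1.98. Same-numbered replicates did not deviate together from their stage means (correlation -0.00574 over all 9976 tested element rows). With the replicate number as a block 455 regions passed, 214 higher and 241 lower, with a median of -0.09. Among long orphan regions named by the rule, the signs that turned were those of small changes and of 1 long region. CC1G_11874, described above but outside that rule, also turned, from -1.23 to 0.32 with total gene counts. Apart from scaling, the cause was not tested. With upper-quartile factors CC1G_03890 was 0.17, CC1G_08126 0.25 and CC1G_01078 0.25. With total gene counts these were 1.45, 1.53 and 1.53, and CC1G_15528 was 0.33. CC1G_03415 and CC1G_03704 were -0.0604 and -0.0606 with DESeq2 size factors, and -0.0136 and -0.0191 with the DESeq2 Wald test. Leaving out each library, CC1G_08126 ran from -0.12 to 0.10, CC1G_01078 from -0.0473 to 0.0105, CC1G_03415 from -0.11 to 0.17 and CC1G_03704 from -0.0525 to 0.10. Calls were lost for CC1G_14681 without hyphae replicate 1 (1.68, edgeR adjusted p = 0.0973) and with the DESeq2 Wald test (2.02, adjusted p = 0.0590), and for CC1G_02190 with total gene counts (-0.12, edgeR adjusted p = 0.168). Depth limited 69 regions, which had too few reads to test.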
